A study of Mus musculus with 2 samples.

Results

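The 10 transcripts described here are mRNAs encoded by the mouse mitochondrial genome: 5 subunits of respiratory complex I (mt-Nd1, mt-Nd2, mt-Nd3, mt-Nd4 and mt-Nd5), 3 subunits of complex IV (mt-Co1, mt-Co2 and mt-Co3), cytochrome b of complex III (mt-Cytb) and the ATP synthase subunit mt-Atp6. They were chosen by gene name among 32285 gene features, 13 of which are mitochondrially encoded mRNAs, and all 10 were found in both single-nucleus matrices from day 18 fetal lung. One library held fetal lungs from control mothers (PBS) and the other lungs from OVA-asthmatic mothers (OVA). The mothers were wild type and 6 to 8 weeks old when sensitisation began. OVA mothers were sensitised intraperitoneally with 100 µg ovalbumin in alum and received 500 µg intranasally every few days from gestation day 4 to 17, and PBS mothers received alum without ovalbumin and then intranasal PBS. The lungs of 9 PBS and 8 OVA fetuses, from a single pregnant mother per group, were pooled, sorted into ILC2s, CD45+ and EpCAM+ cells, mixed again and lysed to nuclei, so gene expression and chromatin accessibility came from the same nuclei. Each group is therefore 1 library, maternal treatment and library cannot be told apart, and no test between the groups was made. All intervals below are 95% intervals that cover counting error only.

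Mitochondrial DNA is a small circle whose strands are transcribed as long polycistronic RNAs. The RNA is cut mostly at the tRNAs that lie between the coding genes, so mRNAs of one precursor start out in equal number and their later balance depends on processing, polyadenylation and stability. The proteins form the proton-pumping cores of complexes I, III and IV and the proton channel of ATP synthase, and every complex that holds them also needs subunits made from nuclear genes. These RNAs are made in the organelle and not in the nucleus, so their UMIs (unique molecular identifiers, counted molecules) in a nuclear preparation come from mitochondria or free RNA carried along with the nuclei; the proportion of each was not tested.

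The assay captures poly(A) tails, so the 3′ ends of the coding sequences are shown for the transcripts on which the results turn. They are the last 30 bases in GENCODE M21 (GRCm38, the mm10 build of the files), 5′ to 3′, with the stop codon, or the part of it that is encoded, in capitals. mt-Nd3 (chrM:9459-9806), mt-Co1 (chrM:5328-6872) and mt-Atp6 (chrM:7927-8607) end in a complete stop codon, whereas mt-Cytb (chrM:14145-15288), mt-Co3 (chrM:8607-9390) and mt-Nd4 (chrM:10167-11544) end in a lone T that the poly(A) tail completes. All lie on the + strand as single exons without an intron.
mt-Nd3: acacaaaaaggattagaatgaacagagTAA
mt-Co1: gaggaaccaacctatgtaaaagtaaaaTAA
mt-Atp6: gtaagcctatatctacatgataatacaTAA
mt-Cytb: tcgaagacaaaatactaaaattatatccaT
mt-Co3: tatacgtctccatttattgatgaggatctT
mt-Nd4: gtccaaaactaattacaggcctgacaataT
The other members are mt-Nd1 (chrM:2751-3707), mt-Nd2 (chrM:3914-4951), mt-Co2 (chrM:7013-7696) and mt-Nd5 (chrM:11742-13565). For 6 members (mt-Atp6, mt-Co1, mt-Co2, mt-Co3, mt-Nd3 and mt-Nd4) the annotation holds a nuclear copy 99.7% to 100% identical over the aligned stretch, all in 1 block of chromosome 1 (chr1:24611535-24616197). The copy of mt-Co1 covers its last 483 bases and that of mt-Nd4 its first 876 bases. None of the annotated nuclear copies is a feature of the matrices, so reads from these copies could not be told from reads of the 6 members.

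The PBS library held 8019 barcodes and 11473351 gene UMIs, and the OVA library 5960 barcodes and 13774959 gene UMIs; 54 barcode sequences occurred in both. The 10 transcripts made up 44.8% of all PBS gene UMIs and 29.0% of all OVA gene UMIs, and more than 99% of the UMIs of the 13 mitochondrial mRNAs in each. Barcodes with fewer than 200 genes or with a mitochondrial fraction above 60% were removed, leaving 4572 (57.0%) PBS and 5246 (88.0%) OVA barcodes. This limit acts on the quantity described here. A kept nucleus held a median of 440 member UMIs in PBS nuclei and 487 in OVA nuclei. Nuclei were assigned to a cell type when at least 3 of its gate markers were detected, no other type reached 3 and the lead over any other type was at least 2 markers, and 7 types held at least 50 nuclei in both libraries: ILC2 (319 PBS and 473 OVA), macrophage (118 and 271), AT2 (387 and 260), AT1 (144 and 199), fibroblast (555 and 970), myofibroblast or smooth muscle (50 and 79) and pericyte (71 and 108). Of 6 further markers per type, 5 or 6 were at least 1.5-fold higher in the gated nuclei of each library. The fibroblast, myofibroblast and pericyte gates are mesenchymal and lie outside the sorted populations named above. Gated nuclei were deeper than the rest, with a median of 756 against 640 nuclear-gene UMIs in PBS nuclei and 1378.5 against 1126.5 in OVA nuclei. They also held fewer member UMIs per 1000 nuclear-gene UMIs, 543 against 598 in PBS nuclei and 328 against 416 in OVA nuclei.

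The balance among the transcripts was uneven and its broad order was shared by all 7 cell types. The share of a transcript is its percentage of the UMIs of the 10 members. mt-Co3, a structural subunit of cytochrome c oxidase, held a median share over the types of 21.2% in PBS nuclei and 21.5% in OVA nuclei. mt-Atp6, which forms part of the proton path of ATP synthase, held 18.3% and 18.8%, and mt-Co2, which receives electrons from cytochrome c, held 17.6% and 18.0%. These 3 neighbouring genes, encoded between positions 7013 and 9390, supplied most of the UMIs. mt-Co1, the catalytic subunit of complex IV, followed with 10.8% and 10.4%, and mt-Cytb, the core of complex III, with 8.44% and 7.68%. Of the complex I subunits, all in the membrane arm of the enzyme, mt-Nd1 held 7.74% and 7.46%, mt-Nd4 6.22% and 5.88%, mt-Nd2 5.17% and 5.52%, mt-Nd3 2.63% and 3.35%, and mt-Nd5 1.46% and 1.53%. The longest coding sequence, mt-Nd5, thus held the smallest share.

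Dividing each count by coding length widened the gap between the 3 leading transcripts and the rest and changed the order of the others. On this length-scaled share, mt-Co3 (22.5% in the PBS library as the median over types), mt-Atp6 (22.3%) and mt-Co2 (21.3%) lay close to each other. mt-Nd1 (6.81%), mt-Nd3 (6.36%), mt-Cytb (6.04%) and mt-Co1 (5.76%) formed a middle group, in which the short mt-Nd3 ranked close to mt-Nd1 although its unscaled share was far smaller. mt-Nd2 (4.12%) and mt-Nd4 (3.80%) came next. mt-Nd5 was lowest at 0.666%. Because the assay counts 3′ ends and not whole transcripts, a share per length is a description and need not be a better measure of molecules than the unscaled share.

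**Figure D1:**
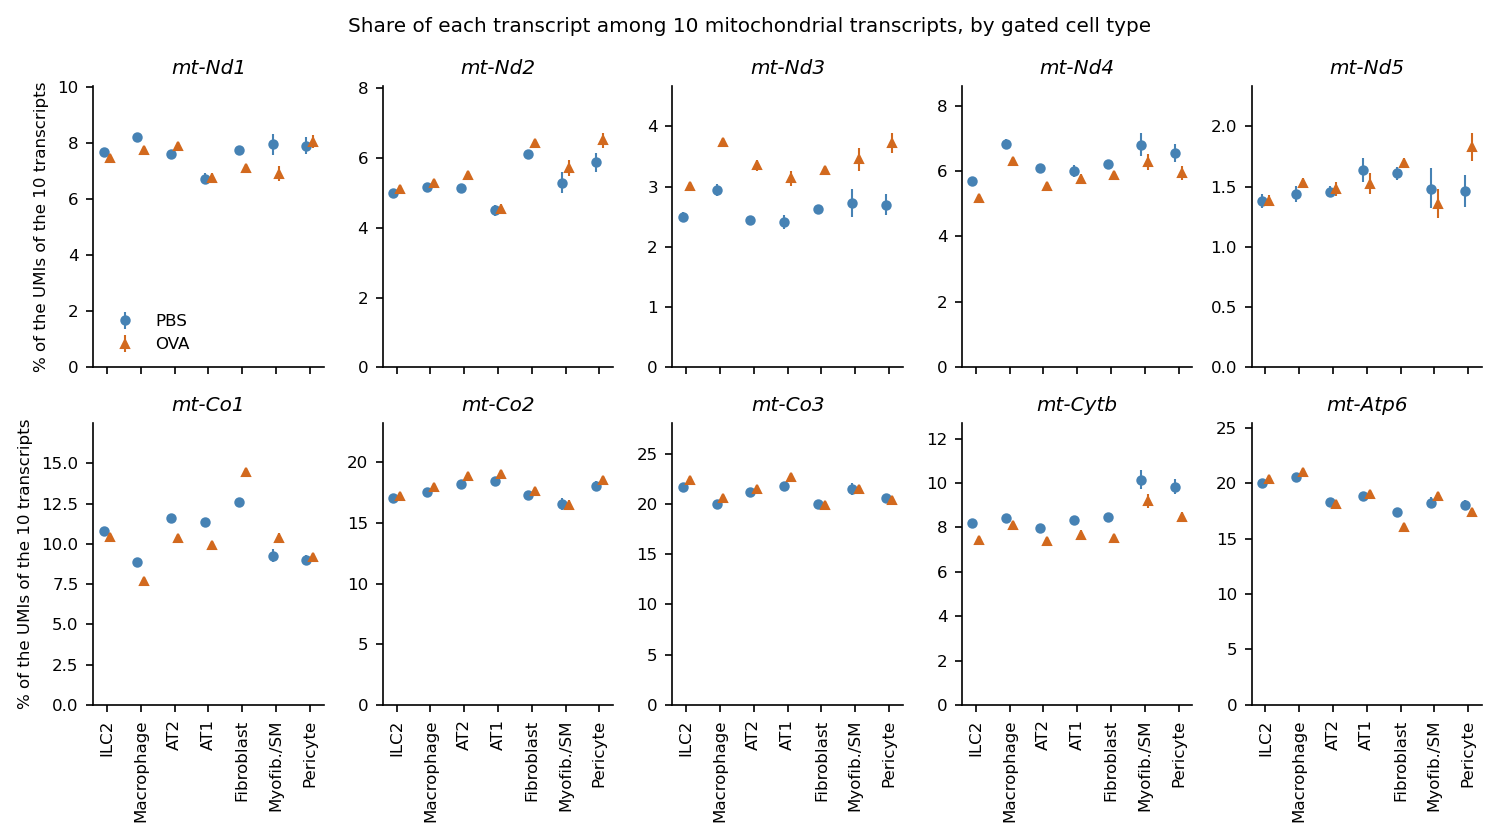
Share of each transcript, in % of the UMIs of the 10 transcripts, in nuclei of 7 gated cell types (x axis) of the PBS library (blue circles) and the OVA library (orange triangles). Bars are 95% Clopper-Pearson intervals and each panel has its own axis from 0; mt-Nd3 lay higher in the OVA library in every type, and mt-Co1 had the widest spread over types.

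Among the complexes, the members of complex IV made up 46.4% to 51.6% of the member UMIs over the 7 types in PBS nuclei and 46.3% to 52.0% in OVA nuclei. Complex I, with 5 members, made up 21.3% to 24.6% and 21.7% to 26.0%. Macrophages had the lowest complex IV share in both libraries and the highest mt-Atp6 share, 20.6% and 21.0%. AT1 cells, the flat cells of the gas-exchange surface, had the lowest complex I share in both libraries, with mt-Nd1 at 6.74% and 6.77% and mt-Nd2 at 4.51% and 4.54%. Both were the lowest values of these transcripts among the 7 types.

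mt-Co1 varied most between cell types. In the PBS library its share was 8.85% in macrophages, 8.98% in pericytes, 9.27% in myofibroblast or smooth muscle nuclei, 10.8% in ILC2s, 11.3% in AT1 cells, 11.6% in AT2 cells and 12.6% in fibroblasts. In the OVA library it was 7.70% in macrophages, 9.18% in pericytes, 9.90% in AT1 cells, 10.4% in myofibroblast or smooth muscle nuclei, in AT2 cells and in ILC2s, and 14.5% in fibroblasts. Macrophages were thus lowest and fibroblasts highest in both libraries, 1.42-fold apart (1.39 to 1.45) in PBS nuclei and 1.88-fold apart (1.85 to 1.91) in OVA nuclei. The next largest spread was that of mt-Nd2, 1.36-fold in PBS nuclei and 1.43-fold in OVA nuclei, and mt-Co3 differed by only 1.09-fold and 1.14-fold.

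Macrophages and fibroblasts were also compared nucleus by nucleus. Among nuclei with at least 100 member UMIs, the median mt-Co1 share was 9.06% (quartiles 7.61 and 10.5) in 117 PBS macrophages and 12.7% (10.6 and 15.7) in 545 PBS fibroblasts. In the OVA library it was 7.66% (6.77 and 8.91) in 267 macrophages and 14.8% (12.4 and 17.4) in 963 fibroblasts. In each library the upper quartile of macrophages lay below the lower quartile of fibroblasts. The lowest PBS median was not that of macrophages but that of pericytes, 8.67% in 70 nuclei, which reverses the order of these neighbours in the summed counts. Nuclei of 1 library share their preparation and are not replicates of a cell type.

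mt-Cytb had a different order. Its share was highest in myofibroblast or smooth muscle nuclei, 10.2% in PBS nuclei and 9.19% in OVA nuclei, followed by pericytes with 9.84% and 8.47%. It was lowest in AT2 cells, the surfactant-producing cells, with 7.97% and 7.38%. mt-Nd2 was highest in the PBS library in fibroblasts, 6.11%, and in the OVA library in pericytes, 6.51%, where fibroblasts had 6.42%.

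Relative to nuclear genes, the cell types differed more than in balance. The summed level, the UMIs of the 10 members per 1000 nuclear-gene UMIs, was 807 in macrophages, 703 in ILC2s, 622 in AT2 cells, 530 in pericytes, 443 in AT1 cells, 396 in myofibroblast or smooth muscle nuclei and 389 in fibroblasts of the PBS library. In the OVA library it was 613 in macrophages, 432 in ILC2s, 349 in AT2 cells, 314 in pericytes, 266 in myofibroblast or smooth muscle nuclei, 242 in AT1 cells and 230 in fibroblasts. Macrophages, the sole type with more than 900 member UMIs in the median nucleus of either library, led in both. All neighbours in these orders differed beyond counting error, the closest being myofibroblast or smooth muscle nuclei against fibroblasts in the PBS library, with a log2 difference of 0.026 (0.005 to 0.047). Highest over lowest type was 1.05 on the log2 scale in PBS nuclei and 1.42 in OVA nuclei. Which type was lowest changed under some other settings, given in the last section. The 56 mast cell or basophil nuclei of the OVA library, a type with 29 nuclei in the PBS library and thus not compared, had a level of 556.

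**Figure D2:**
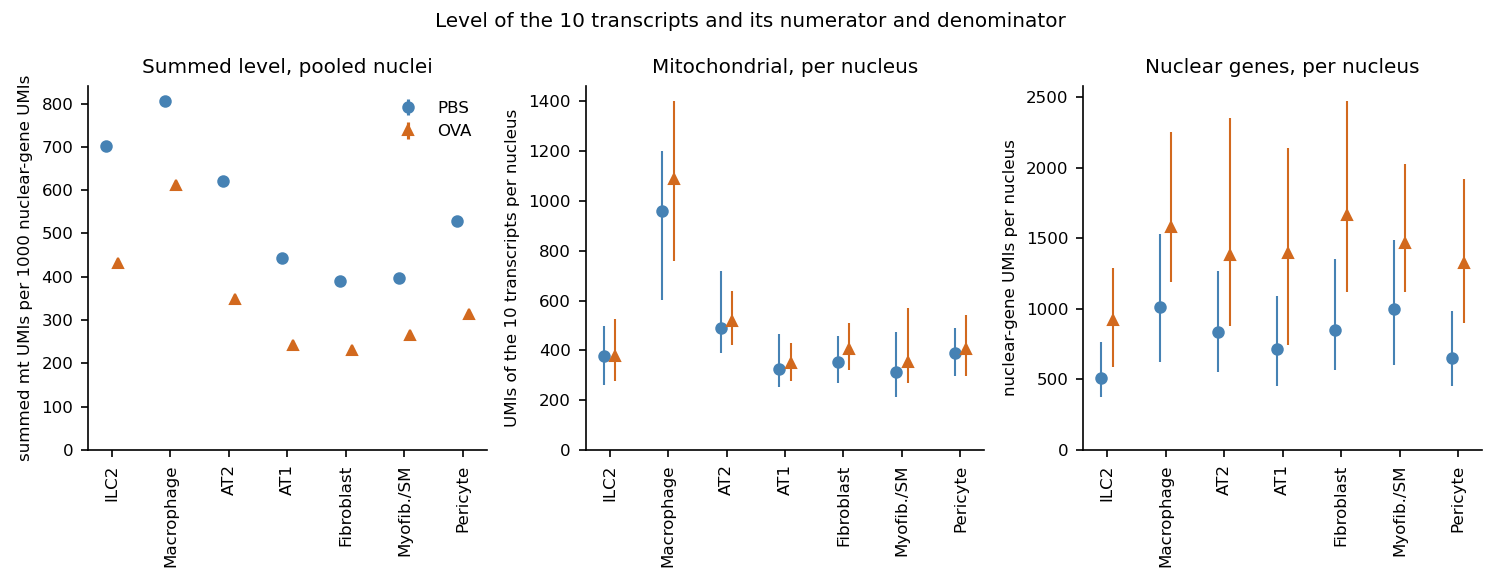
Left, summed level of the 10 transcripts per 1000 nuclear-gene UMIs by cell type (Poisson 95% intervals, smaller than the symbols); middle and right, UMIs of the 10 transcripts and of nuclear genes per nucleus (median and quartiles). PBS library in blue, OVA library in orange: the member UMIs of a median ILC2 nucleus were 378 and 376, and its nuclear-gene UMIs 512 and 919.

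Between the libraries the summed level was lower in OVA than in PBS in all 7 types. The log2 ratio of OVA over PBS was −0.87 (AT1), −0.83 (AT2), −0.76 (fibroblast), −0.75 (pericyte), −0.70 (ILC2), −0.57 (myofibroblast or smooth muscle) and −0.40 (macrophage). Both parts of this ratio were examined. The median number of member UMIs per nucleus in PBS and OVA was 378 and 376 in ILC2s, 958.5 and 1088 in macrophages, 491 and 519 in AT2 cells, 326 and 349 in AT1 cells, 353 and 406 in fibroblasts, 313 and 354 in myofibroblast or smooth muscle nuclei, and 390 and 404 in pericytes. The medians in the OVA library were 0.995-fold to 1.15-fold those in the PBS library. In contrast, the median number of nuclear-gene UMIs per nucleus was 1.47-fold to 2.05-fold higher in the OVA library in the same types, for example 512 and 919 in ILC2s and 851 and 1667 in fibroblasts. The summed level pools nuclei, so its parts follow the means per nucleus. Mean member UMIs in OVA were 0.894-fold to 1.15-fold those in PBS and higher in 5 of 7 types. They were lower in AT1 cells (438 and 391) and AT2 cells (646 and 600), the types with the lowest ratios. Mean nuclear-gene UMIs were 1.51-fold to 1.82-fold higher in OVA. The lower level thus went with a larger denominator in all 7 types, while median member UMIs per nucleus were similar in number. This held less well where deeper nuclei were required: over the types, the median log2 ratio of member UMIs per nucleus was 0.098 in the kept nuclei, −0.13 with at least 500 genes and −0.21 with the count filter of the joint analysis, and that of nuclear-gene UMIs was 0.84, 0.43 and 0.55. With a limit of 20% mitochondrial UMIs, which truncates the measured quantity, the summed level in AT2 cells did not differ beyond counting error, with a log2 ratio of −0.023 (−0.06 to 0.013). The number of reads behind each library is not given in the sources used here, and the part of sequencing depth or nuclear preparation in this difference was not tested.

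Gene by gene, features with at least 100 UMIs over both libraries were called when they differed by at least 1.5-fold per nuclear-gene UMI with an interval that excluded equality. In ILC2s, 9 of 10 members were called lower in OVA, against 5.36% of the 1418 features tested, and none higher, against 17.8%. The member not called was mt-Nd3. In AT2 cells 9 members were called lower (background 2.83%, and 12.0% called higher), in AT1 cells 9 (3.03% and 8.31%), in fibroblasts 8 (2.79% and 5.39%) and in pericytes 8 (8.86% and 9.97%). In myofibroblast or smooth muscle nuclei 4 were called lower (6.23% and 8.65%), and in macrophages 1, mt-Co1 (11.0% and 18.5%). No member was called higher in any of the 7 types. The median log2 ratio of the 10 members was −0.69 in ILC2s, where that of all features tested was 0.19, and −0.36 in macrophages, where it was 0.25. The members share 1 denominator and, in each library, 1 preparation, so their calls are not independent. Per UMI of all genes instead of nuclear genes, the median of all features moved to 0.44 in ILC2s and 0.42 in macrophages, and that of the members to −0.44 and −0.20.

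The shares differed between the libraries by less than the level did, and mt-Nd3 differed most regularly. mt-Nd3, the small complex I subunit, was a larger share of the member UMIs in the OVA library in every type. Its share in PBS and OVA was 2.49% and 3.01% in ILC2s, 2.94% and 3.74% in macrophages, 2.44% and 3.35% in AT2 cells, 2.41% and 3.14% in AT1 cells, 2.63% and 3.27% in fibroblasts, 2.72% and 3.45% in myofibroblast or smooth muscle nuclei, and 2.70% and 3.72% in pericytes. The highest PBS share thus lay below the lowest OVA share among these types, and each interval of the ratio excluded 1. The share was 1.21-fold to 1.38-fold higher in OVA, with a median log2 ratio of 0.35. mt-Nd3 was the only member with a share at least 1.1-fold apart in the same direction in all 7 types. Its level per nuclear-gene UMI was nonetheless lower in the OVA library, by a log2 ratio of −0.049 in macrophages to −0.50 in AT1 cells, and in macrophages the interval included equality. The 56 OVA mast cell or basophil nuclei had an mt-Nd3 share of 2.75%, inside the range of the PBS types.

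The shift of mt-Nd3 was also seen outside the gated nuclei. In kept nuclei without an assigned type its share was 2.80% in PBS and 3.50% in OVA. In barcodes with fewer than 200 genes it was 2.53% (2.48 to 2.57) and 3.02% (2.92 to 3.12), and in those over the mitochondrial limit 2.89% and 3.62%. When only nuclei with 20 to 40% mitochondrial UMIs were compared, it was 2.25% and 2.97% in ILC2s, 2.80% and 3.71% in macrophages, and 2.65% and 3.35% in fibroblasts. The higher mt-Nd3 share in OVA was thus seen in gated, ungated and removed barcodes alike. mt-Nd3 is one of the 6 members with a near-identical nuclear copy, and the part of that copy in its counts was not tested.

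**Figure D3:**
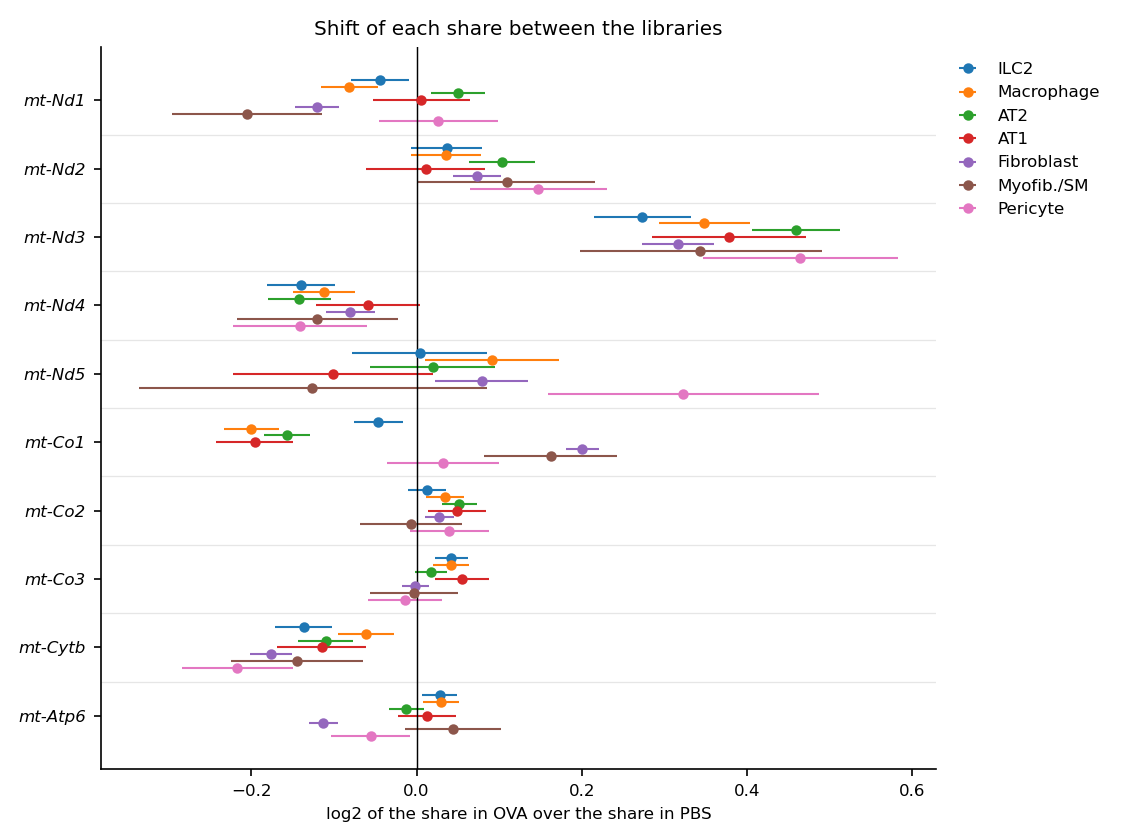
Log2 ratio of the share of each transcript in the OVA library over its share in the PBS library (x axis), with exact 95% intervals, for 7 cell types (colours). Points of mt-Nd3 lay between 0.27 and 0.46, those of mt-Cytb between −0.22 and −0.061, and those of mt-Co1 on both sides of 0.

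mt-Cytb and mt-Nd4 lay in the opposite direction. The share of mt-Cytb was lower in OVA beyond counting error in 7 of 7 types, with log2 ratios from −0.061 in macrophages to −0.22 in pericytes, and from 8.18% to 7.44% in ILC2s. That of mt-Nd4 was lower beyond counting error in 6 of 7, with log2 ratios of −0.14 in ILC2s and AT2 cells and −0.059 (−0.12 to 0.004) in AT1 cells. mt-Nd2 was higher beyond counting error in 4 of 7 types, with 5.88% in PBS and 6.51% in OVA pericytes. The log2 ratio of mt-Co3 lay between −0.014 and 0.055 in the 7 types.

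The direction of mt-Co1 depended on cell type. Its share was higher in OVA in fibroblasts (12.6% and 14.5%, log2 ratio 0.20, 0.18 to 0.22) and in myofibroblast or smooth muscle nuclei (9.27% and 10.4%). It was lower in macrophages (8.85% and 7.70%, log2 ratio −0.20, −0.23 to −0.17), AT1 cells (11.3% and 9.90%) and AT2 cells (11.6% and 10.4%), and slightly lower in ILC2s, with a log2 ratio of −0.046. In pericytes the interval included equality. In fibroblasts the higher share of mt-Co1 went with a lower share of mt-Atp6, 17.4% in PBS and 16.1% in OVA, so the complex IV share was 2.19 percentage points (1.94 to 2.44) higher in OVA. The complex I share differed by −0.58 to 1.56 percentage points, with a median over types of 0.095 and intervals that excluded 0 in AT2 cells, AT1 cells and pericytes.

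The balance also varied with the mitochondrial content of a barcode. Among all barcodes with at least 200 genes, the mt-Co1 share was 11.5% in the PBS barcodes with under 10% mitochondrial UMIs and 8.71% in those with 60 to 80%, and in the OVA library 14.3% and 7.33%. The mt-Atp6 share went the other way, from 18.1% to 20.5% in PBS and from 16.7% to 21.0% in OVA. Cell types were unevenly spread over these bands: the 10 members alone made up 47.2% of the gene UMIs of the median nucleus in PBS macrophages and 30.2% in PBS fibroblasts. Gated types differed in how far the mt-Co1 share varied with these bands, none of which reached above 60%. In PBS fibroblasts it was 12.7%, 12.6% and 12.6% in nuclei with under 20%, 20 to 40% and 40 to 60% mitochondrial UMIs, and in OVA fibroblasts 15.3%, 13.8% and 13.5%. In PBS macrophages it was 8.83% and 8.82% in the bands from 20 to 40% and 40 to 60%, and in OVA macrophages 7.84% and 7.52%. In ILC2s it was 11.4% and 10.5% in these 2 bands in PBS and 10.7% and 9.78% in OVA. The 76 OVA ILC2s under 20% had 11.2%. AT2 cells had 13.1% (22 nuclei), 11.9% and 11.3% in the 3 PBS bands and 11.0%, 10.7% and 9.46% in the OVA bands. The order of macrophages below ILC2s and ILC2s below fibroblasts thus held in the bands from 20 to 40% and 40 to 60% of both libraries.

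**Figure D4:**
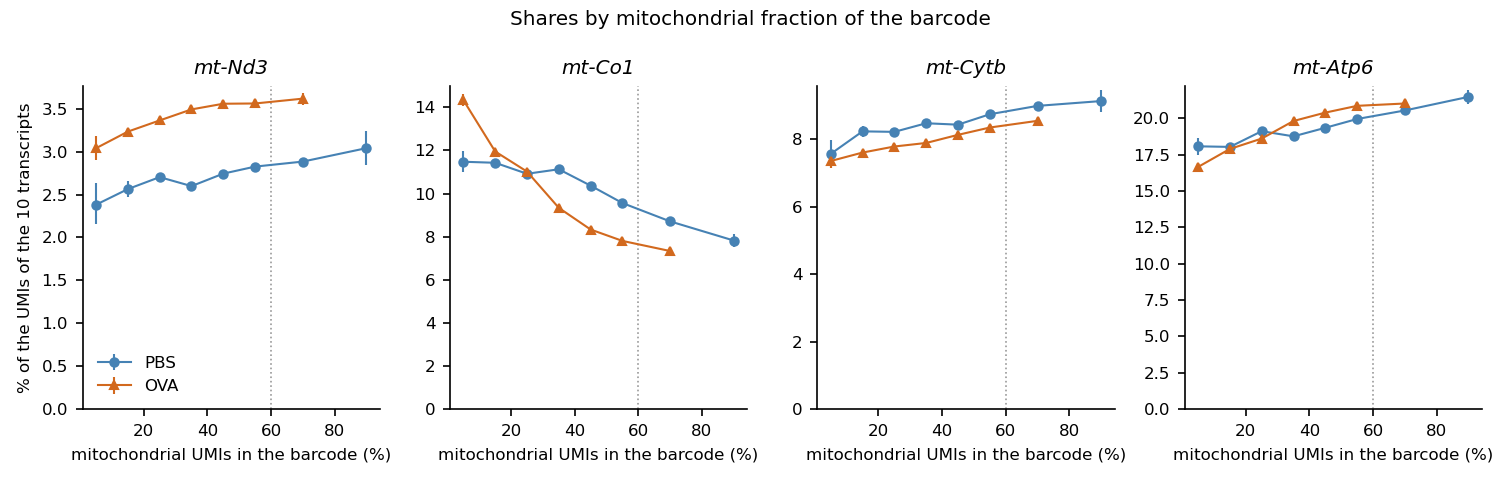
Share of 4 of the transcripts (y axis, in % of the UMIs of the 10 transcripts) by the percentage of mitochondrial UMIs in the barcode (x axis, centre of each band), over all barcodes with at least 200 genes of the PBS (blue) and OVA (orange) libraries; bars are 95% Clopper-Pearson intervals and the dotted line is the limit of 60%. mt-Nd3 was higher in OVA in every band that both libraries filled, and mt-Co1 decreased from 14.3% to 7.33% across the OVA bands.

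The 3 other mitochondrial mRNAs were rare. mt-Atp8, which shares a bicistronic RNA with mt-Atp6 and overlaps it, gave 1.04 UMIs per 100 mt-Atp6 UMIs in kept PBS nuclei and 1.27 in OVA nuclei. mt-Nd4l, the upstream partner of mt-Nd4, gave 6.48 and 7.59 per 100 mt-Nd4 UMIs. mt-Nd6, the single mRNA encoded on the other strand, gave 7.21 and 7.15 per 100 mt-Nd5 UMIs. In each bicistronic pair most UMIs were thus assigned to the downstream gene, which carries the tail.

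The nuclear genes for the same complexes were far less abundant in these nuclei. Summed over 83 nuclear-encoded subunits of complexes I to V, the level was 6.44 UMIs per 1000 nuclear-gene UMIs in PBS and 4.94 in OVA ILC2s, 6.62 and 3.80 in macrophages, 8.18 and 6.36 in AT2 cells, 7.74 and 7.18 in AT1 cells, 5.63 and 5.02 in fibroblasts, 5.23 and 5.59 in myofibroblast or smooth muscle nuclei, and 6.92 and 5.76 in pericytes. Between 33.6 (AT1, OVA) and 161 (macrophages, OVA) member UMIs were counted for each UMI of these nuclear genes. The order of cell types was not that of the mitochondrial transcripts: AT2 cells led the nuclear-encoded subunits in PBS nuclei and AT1 cells in OVA nuclei, and macrophages were lowest in the OVA library.

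The number of the 83 genes that reached 100 UMIs was 50 in fibroblasts, 22 in AT2 cells, 7 in ILC2s, 4 in AT1 cells, 2 in macrophages and none in myofibroblast or smooth muscle nuclei and pericytes. In fibroblasts 3 were called lower in OVA and 1 higher, with a median log2 ratio of −0.20 against 0.06 for all features. In AT2 cells 4 were called lower and none higher (median −0.38 against 0.15), and in AT1 cells 1 lower (median −0.27 against 0.11). In macrophages both that were tested were called lower (median −0.78 against 0.25). Of all features tested, 2.79% were called lower in fibroblasts, 2.83% in AT2 cells, 3.03% in AT1 cells, 11.0% in macrophages and 5.36% in ILC2s. In fibroblasts 5.39% were called higher. The median in ILC2s was −0.55 against 0.19. In ILC2s 3 of 7 were called lower: Atp5a1, a catalytic subunit of ATP synthase, with a log2 ratio of −0.72 (−1.21 to −0.22), Atp5e with −0.66 (−1.23 to −0.07) and Uqcrh, the hinge protein of complex III, with −0.71 (−1.17 to −0.24). The others of these ILC2 genes named by rule were not called, Atp5l with −0.47, Atp5g2 with −0.03, Cox7a2l with −0.55 and Cox4i1 with −0.36. None of the 38 nuclear complex I genes reached 100 UMIs in ILC2s, so the nuclear counterpart of the 5 mitochondrial complex I transcripts could not be compared gene by gene there.

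Genes that control mitochondrial RNA were near the limit of detection. Of 17 genes for mitochondrial transcription and replication and 21 for mitochondrial RNA processing and stability, none reached 100 UMIs in 6 of the types; in fibroblasts 1 and 2 did, and none was called. Of 12 regulators of mitochondrial biogenesis 2 were tested in ILC2s. Nrf1, a transcription factor for nuclear respiratory genes, was called higher in OVA with 26 and 102 UMIs and a log2 ratio of 0.65 (0.02 to 1.33), and Gabpb1 was not called with 0.17. In AT2 cells 2 of 4 tested were called higher, Ppargc1a, a coactivator of mitochondrial biogenesis, with 0.85 (0.49 to 1.21) and Nrf1 with 0.78 (0.24 to 1.34). Of all features tested, 17.8% were called higher in ILC2s and 12.0% in AT2 cells. Neither of the 2 tested in macrophages, the 1 tested in AT1 cells nor the 5 tested in fibroblasts was called, and Nrf1 had −0.018 in macrophages and −0.077 in fibroblasts. The values of Ppargc1a and of Nrf1 outside ILC2s were named after they were seen.

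Cytosolic ribosomal protein genes, whose mature mRNAs are mostly in the cytoplasm, were compared because cytoplasmic RNA can accompany nuclei. In ILC2s the median log2 ratio of the 49 genes was −0.34; Rplp2 had −0.53, Rps27 0.03 and Rpl18 0.09, and none of these was called. In macrophages all 49 were called lower with a median of −1.19, while 1 of 10 members was. Medians in the other types lay between −0.04 and −0.25. Per UMI of all genes these medians turned positive in AT2 cells (0.02), AT1 cells (0.03), myofibroblast or smooth muscle nuclei (0.10) and pericytes (0.02), whereas those of the members stayed negative in all 7 types. The part of cytoplasmic RNA or of mitochondria carried along with nuclei in these differences was not tested. Of the genes listed as nuclear-retained RNAs, Gm26917 was called lower in ILC2s with −0.59, and Malat1 had −0.13, Neat1 0.15 and Kcnq1ot1 0.50. Whether Gm26917 is retained in the nucleus was not tested. Haemoglobin genes, markers of red cells, did not reach 100 UMIs in any type.

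**Figure D5:**
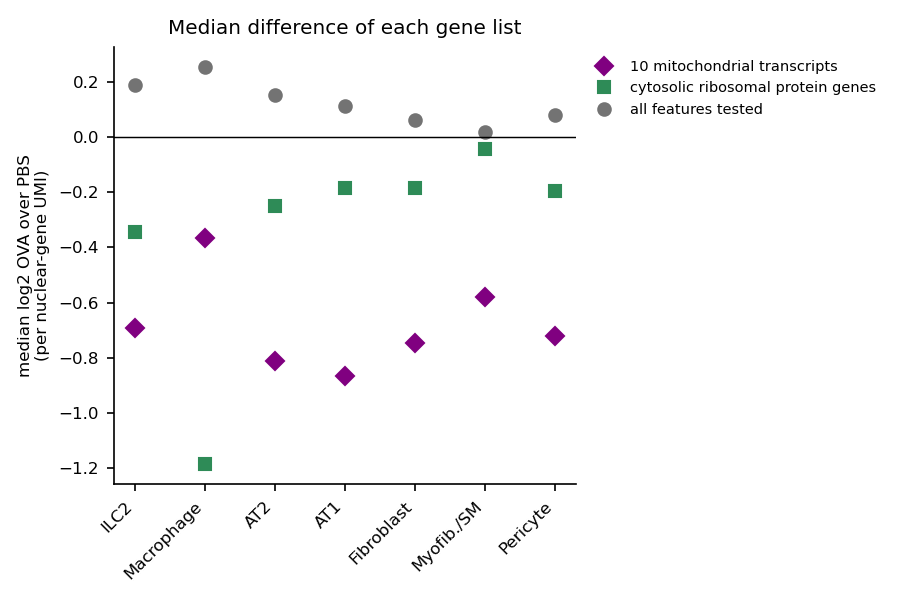
Median log2 ratio of OVA over PBS per nuclear-gene UMI (y axis) in 7 cell types (x axis) for the 10 mitochondrial transcripts (purple diamonds), for the tested cytosolic ribosomal protein genes (green squares) and for all features tested (grey circles). The mitochondrial median lay lowest in 6 types, and in macrophages the ribosomal protein median, −1.19, lay lower still.

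Nuclear genes whose level followed the summed member level were sought among 33 genes with at least 50 UMIs in all 15 combinations of library and type with at least 50 nuclei. The highest Pearson correlations of the log2 values were those of Gm26917 (0.93), Lars2 (0.73), Camk1d (0.71), Gm42418 (0.70) and Rplp1 (0.60). Lars2 encodes the leucyl-tRNA synthetase of mitochondria, and Gm42418 is known to overlap ribosomal RNA sequence. Whether counts of Gm26917, Lars2 or Camk1d also hold ribosomal RNA reads was not tested. Nor was any link between the role of Lars2 and the members. For Gm26917 the correlation was 0.91 over the 7 PBS types and 0.93 over the 8 OVA types. For the others the values in PBS and OVA types were 0.65 and 0.55 for Lars2, 0.73 and 0.43 for Camk1d, 0.79 and 0.43 for Gm42418, and 0.70 and 0.41 for Rplp1. The median over the 33 genes was 0.14. The lowest correlation was that of Malat1, −0.47. The 15 points come from 2 libraries and share depth and denominator within each, so these values are descriptions.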

How the data were processed

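The authors deposited raw UMI counts per barcode from 10x Multiome libraries, made with Cell Ranger ARC 2.0.1 on mm10; the aligner settings are not given in the sources used here. Accessibility counts in the same matrices were used only for 1 alternative filter. Mitochondrial genes carry no coordinates in the feature table, so positions and sequences come from GENCODE M21, and nuclear copies from BLAST 2.17.0 (blastn) against its transcripts. Kept nuclei had at least 200 genes and at most 60% mitochondrial UMIs, which are the first limits for gene expression in the methods of the study. Its joint analysis with accessibility added limits on counts, nucleosome signal and enrichment at transcription start sites. Of these, only the count limits were applied here, as 1 alternative filter. Types were gated on fixed markers (at least 3, with a lead of at least 2 over any other type, of 19 types); nuclei with 3 markers of 2 types (413 PBS, 546 OVA) were left out, which stands in for doublet removal. In all, 1722 PBS and 2494 OVA nuclei were gated. UMIs were summed per type and library. Intervals are Clopper-Pearson for shares, exact Poisson for sums, exact conditional binomial for ratios and Newcombe for differences of shares. A call needed at least 100 UMIs and 1.5-fold. Named nuclear genes were at most the 2 highest and 2 lowest log2 ratios of each list in ILC2s, and the 5 highest correlations. One gene that this rule names is not reported here. With 1 library per group no test across samples exists. Python 3.11.15, NumPy 2.4.6, SciPy 1.17.1, pandas 2.3.3 and Matplotlib 3.10.9 were used, and ratios and intervals were tested on simulated data. The members and lists were chosen with earlier results of these data known.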

Additional observations from a re-analysis of the deposited data

Results flagged for a closer look

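The share of 3 members differed between the libraries in opposite directions in different cell types, each beyond counting error; with 1 library per group the difference between types was not tested across samples. For mt-Co1 the log2 ratio of OVA over PBS was 0.20 in fibroblasts and −0.20 in macrophages. For mt-Nd1 it was 0.050 in AT2 cells and −0.21 in myofibroblast or smooth muscle nuclei. For mt-Atp6 it was 0.030 in macrophages and −0.11 in fibroblasts.

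Barcodes that were not kept held 2129241 member UMIs with PBS and 398862 with OVA, a signal outside the main comparisons. In them mt-Nd3 made up 2.81% of the member UMIs in PBS and 3.46% in OVA, and mt-Co1 9.11% and 8.59%.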

How the results depend on the processing

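No paired analysis was possible because the PBS and OVA groups are 1 library each, and for the same reason no replicate could be left out. Over 10 summary results, 92 values under other settings were computed (66 planned, 26 added after seeing the data): 39 stayed within the counting interval of the reported value (for UMIs per nucleus, within the range over types), 53 moved outside it and 0 turned in direction where the reported interval excluded 0. In every setting mt-Nd3 was the 1 member with a share at least 1.1-fold apart in the same direction in all types compared.

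The summed level of OVA over PBS (log2) in ILC2s, macrophages and AT2 cells was −0.85, −0.51 and −0.96 with no mitochondrial limit, −0.71, −0.48 and −0.72 with at least 2 gate markers, −0.77, −0.49 and −0.86 with the count filter of the joint analysis (1000 to 25000 gene UMIs and 1000 to 100000 accessibility counts), −0.74, −0.48 and −0.77 without the 5% of nuclei with most UMIs, −0.65, −0.41 and −0.59 as the mean of single nuclei, −0.76, −0.46 and −0.89 without Gm42418 and AY036118, and −0.45, −0.23 and −0.57 per UMI of all genes. In ILC2s and macrophages it was −0.72 and −0.36 with at least 500 genes and −0.63 and −0.38 with at least 4 gate markers. With at most 20% mitochondrial UMIs, which by construction cuts the measured quantity, it was −0.023 in AT2 cells, and ILC2s, macrophages, myofibroblast or smooth muscle nuclei and pericytes had too few nuclei (under 20 in a library).

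The highest over the lowest type (log2) in PBS and OVA was 1.14 and 1.44 with no limit, 0.17 and 0.34 with the limit of 20% (3 types), 1.19 and 1.52 with at least 500 genes, 1.12 and 1.32 with at least 2 gate markers, 1.20 and 1.48 with at least 4, 1.17 and 1.35 without the 5% of nuclei with most UMIs, 1.09 and 1.44 without Gm42418 and AY036118, and 0.67 and 1.02 per UMI of all genes. It was 1.105 in PBS with the joint filter and 1.22 in OVA as the mean of single nuclei. Macrophages were highest except with the limit of 20%, where AT2 cells were highest and AT1 cells lowest. The lowest type was otherwise fibroblasts, with exceptions in both libraries. Myofibroblast or smooth muscle nuclei were lowest in PBS with at least 2 gate markers, the joint filter, without the 5%, and as the mean of single nuclei. AT1 cells were lowest in OVA with at least 500 genes. The median complex I difference was 0.48 percentage points with at least 4 gate markers and 0.36 in nuclei with 20 to 40% mitochondrial UMIs.

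The median mt-Nd3 share ratio (log2) was 0.23 with the limit of 20% and 0.43 in nuclei with 20 to 40% mitochondrial UMIs. The median over types of member UMIs per nucleus, OVA over PBS (log2), reported as 0.098, was 0.45 with the limit of 20%, −0.13 with at least 500 genes and −0.21 with the joint filter. That of nuclear-gene UMIs, reported as 0.84, was 0.43 with at least 500 genes and 0.55 with the joint filter. The last 2 filters set a lower bound on depth; the cause of the other moves was not tested. Depth limits the nuclear-encoded genes most, since 7 of 83 respiratory genes reached 100 UMIs in ILC2s.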
